A study of Mus musculus with 4 samples.

Results

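Regulatory T cells keep other lymphocytes in check, and 8 genes by which they are commonly recognised (*Foxp3*, *Il2ra*, *Ikzf2*, *Ikzf4*, *Nt5e*, *Entpd1*, *Lrrc32* and *Gpr83*) were followed here in TCRβ+CD8αα+ intestinal intraepithelial lymphocytes (IELs). The 8 were taken from a written list rather than ranked by their values, but that list was chosen with earlier results of these data known. All 8 were found among the 19339 genes of each library. The RNA came from small intestinal CD45+CD4-TCRβ+CD8α+CD8β- cells of C57BL/6 mice, sorted by flow cytometry, and each library pooled the RNA of 3 mice. Control mice carried loxP-flanked *Kdm6b* alleles without Cre (Kdm6bfl/fl), and Kdm6b-deficient mice carried the same alleles with a *CD4Cre* transgene (Kdm6bfl/fl-CD4Cre), which is expressed from the late double-negative stage of thymocytes, so both groups share the floxed alleles and only the second carries Cre. Ages and sexes are not given in the sources used here. There were 2 control libraries and 2 libraries labelled Kdm6bfl/fl-CD4Cre (the CD4Cre-labelled libraries), numbered 1 and 3 in each group, and what a number stands for is not given. Values are FPKM, which correct fragment counts for the length of the transcript and the depth of the library, and p-values measure the spread between these pools.

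Foxp3 is the lineage factor of regulatory T cells, and Helios (*Ikzf2*) and Eos (*Ikzf4*), zinc finger proteins of the Ikaros family, are found with it in the nucleus. At the surface, CD25 (*Il2ra*) is the chain that gives the IL-2 receptor its high affinity, CD39 (*Entpd1*) and CD73 (*Nt5e*) convert extracellular ATP stepwise to adenosine, GARP (*Lrrc32*) holds latent TGF-β, and *Gpr83* encodes a G protein-coupled receptor. Several of these genes are also used outside regulatory T cells, and Helios marks T cells that met strong agonist signals in the thymus, a history that TCRαβ+CD8αα+ IELs share.

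The libraries carried the markers of the sorted cells but differed in other RNA. *Cd8a* lay between 280 and 463 FPKM, while *Cd8b1*, the chain excluded by the sort, was at 0 in control replicate 1 and at most 1.64 FPKM elsewhere. *Kdm6b*, the floxed gene, had 16.5 and 16.01 FPKM in control replicates 1 and 3, and 18.2 and 11.1 FPKM in CD4Cre-labelled replicates 1 and 3, a log2 difference of -0.18 (SE 0.29, limma adjusted p = 0.886), so it did not separate the labels. These FPKM cover the whole gene, and which exons the allele loses is not given in the sources used here. Summed over 22 epithelial cell markers, the level was 1826.5 and 7533 FPKM in control replicates 1 and 3, and 5751 and 15925 FPKM in CD4Cre-labelled replicates 1 and 3, while the sum of 6 T cell genes ran from 2087 to 3666 FPKM and placed the libraries in the reverse order. Summed FPKM of 6 B lineage markers ranged from 31.6 to 84.8, of 7 myeloid markers from 309 to 711, and of 8 endothelial and fibroblast markers from 12.0 to 16.4. Relative depth, read from the steps between low FPKM values, was 0.975 for control replicate 3, 1 for CD4Cre-labelled replicate 1 and 0.834 for CD4Cre-labelled replicate 3, with control replicate 1 at 1.

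The 8 genes ran from highly expressed to barely detected in these cells (plot of levels by library). *Nt5e* had a mean of 143 FPKM over the 4 libraries, and 3.73% of all listed genes were above it. *Entpd1* (37.2 FPKM) and *Ikzf2* (29.2 FPKM) followed, with 15.0% and 18.3% of genes above them. A gap separated these from *Il2ra* (3.23 FPKM), *Ikzf4* (2.87 FPKM), *Foxp3* (1.97 FPKM) and *Lrrc32* (1.29 FPKM), and *Gpr83* came last with 0.213 FPKM. *Nt5e* exceeded *Entpd1*, *Entpd1* exceeded *Ikzf2*, and *Ikzf2* exceeded *Il2ra* within each of the 4 libraries. *Il2ra* was above *Ikzf4* in 2 libraries and *Foxp3* above *Lrrc32* in 3, so those neighbours were not ordered beyond their spread. The surface enzymes of the adenosine pathway and Helios were therefore the regulatory T cell genes with substantial RNA in the sorted IELs, and the lineage factor itself was near the lower end.

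**Figure D1:**
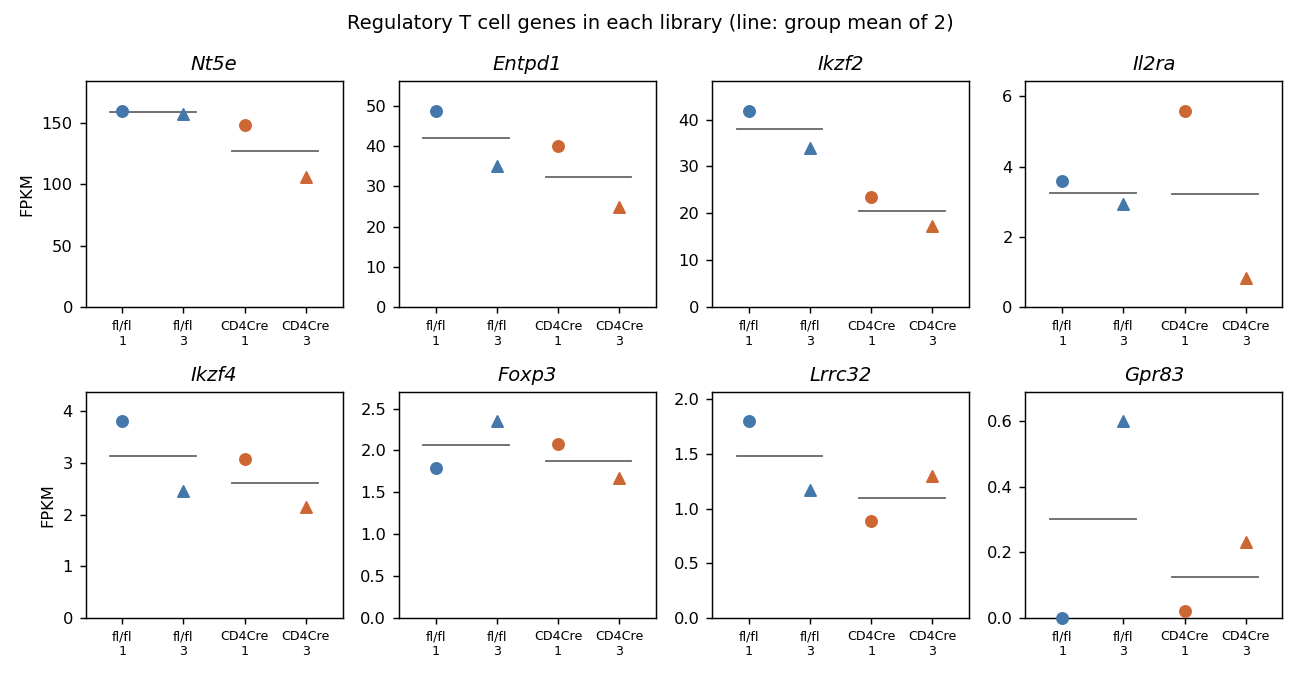
Each panel plots the FPKM of 1 of the 8 regulatory T cell genes (linear axis from 0) in the 4 libraries, with circles for replicate 1, triangles for replicate 3, blue for Kdm6bfl/fl (fl/fl), orange for the libraries labelled Kdm6bfl/fl-CD4Cre (CD4Cre), and a line at each group mean of 2. *Ikzf2* and *Nt5e* are lower in both CD4Cre-labelled libraries than in both controls, and the groups overlap for the other 6 genes.

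Sequences around the start sites of *Nt5e*, *Il2ra* and *Foxp3* are printed to set the gene of highest level beside the receptor that varied most and the lineage factor. They come from RefSeq on GRCm38.p6, where 5 of the 8 genes have such windows (*Nt5e*, *Il2ra*, *Entpd1*, *Foxp3* and *Gpr83*), each 300 bases from 250 bases before to 50 bases after a start. *Nt5e* lies at chr9:88327359-88327658, *Il2ra* at chr2:11642542-11642841 and *Foxp3* (the first of 2 annotated windows) at chrX:7579426-7579725, all on the plus strand, and capitals mark CG dinucleotides.
Nt5e: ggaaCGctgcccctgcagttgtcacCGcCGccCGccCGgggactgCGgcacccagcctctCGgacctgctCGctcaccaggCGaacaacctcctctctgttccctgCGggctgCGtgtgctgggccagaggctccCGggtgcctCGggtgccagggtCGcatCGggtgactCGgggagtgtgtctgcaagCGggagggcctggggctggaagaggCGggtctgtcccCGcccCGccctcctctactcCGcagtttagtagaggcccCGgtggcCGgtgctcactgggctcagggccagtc
Il2ra: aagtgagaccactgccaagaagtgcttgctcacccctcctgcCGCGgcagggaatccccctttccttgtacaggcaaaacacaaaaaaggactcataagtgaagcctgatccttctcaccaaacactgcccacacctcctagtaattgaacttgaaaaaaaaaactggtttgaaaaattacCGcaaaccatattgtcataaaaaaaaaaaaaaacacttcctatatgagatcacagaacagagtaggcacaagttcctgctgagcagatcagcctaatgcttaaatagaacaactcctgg
Foxp3: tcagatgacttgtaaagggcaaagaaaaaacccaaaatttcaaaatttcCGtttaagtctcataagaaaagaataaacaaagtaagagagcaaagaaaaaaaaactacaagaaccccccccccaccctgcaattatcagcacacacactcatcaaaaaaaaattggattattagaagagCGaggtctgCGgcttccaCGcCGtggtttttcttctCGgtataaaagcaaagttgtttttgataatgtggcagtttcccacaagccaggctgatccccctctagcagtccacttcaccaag

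The *Nt5e* window held 23 CG dinucleotides, the *Il2ra* window 3 and this *Foxp3* window 6, against a median of 7 over 32851 windows. CG content did not follow the level of the RNA, since the window of *Gpr83*, the lowest of the 8 genes, held 24. Both strands of the 7 windows of these genes were searched for a STAT5 motif (TTCNNNGAA), the response element of IL-2 signals, and for a RUNX motif (TGTGGT), Runx1 being a partner of Foxp3. The STAT5 letters occurred in the second *Foxp3* window (chrX:7580233-7580532) and the RUNX letters in the second *Entpd1* window (chr19:40659520-40659819), while 8.3% and 16.8% of all windows hold them. A match describes letters and not a binding site, and no binding or chromatin data were analysed here.

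*Ikzf2*, which encodes Helios (Entrez 22779, chromosome 1, 69531207 to 69687351 of GRCm38), showed the largest genotype difference of the 7 genes tested. It had 41.9 and 33.9 FPKM in control replicates 1 and 3 (37.9 ± 5.69, SD, n = 2). In CD4Cre-labelled replicates 1 and 3 it had 23.4 and 17.4 FPKM (20.4 ± 4.26, SD, n = 2). Both CD4Cre-labelled libraries lay below both controls, with a log2 difference of -0.87 (SE 0.24) on the log2(FPKM + 1) scale. The unadjusted p was 0.0125 and the adjusted p was 0.755 from limma over 12009 genes, so the difference did not pass the test. Within replicate 1 the difference was -0.81 and within replicate 3 it was -0.92. Between CD4Cre-labelled replicate 1 and control replicate 3, the pair with the closest epithelial marker sums, it was -0.52. Adding the number to the model as a replicate block called *Ikzf2* (limma adjusted p = 0.0119) along with 8.49% of all genes, but the sources used here do not say that a number pairs libraries. In bulk RNA, fewer cells that express a gene and less RNA per cell cannot be told apart.

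Set against T cell RNA, *Ikzf2* was nearly constant within a genotype. Per 1000 FPKM of the geometric mean of *Cd3d*, *Cd3e*, *Cd3g* and *Ptprc*, it came to 65.8 and 65.5 in control replicates 1 and 3. The same ratio was 45.3 and 47.0 in CD4Cre-labelled replicates 1 and 3. On this scale both CD4Cre-labelled values were again below both control values, and the log2 difference was -0.49 (limma adjusted p = 0.63), where the median of all genes moved to 0.355. By replicate number *Ikzf2* differed by -0.35 (SE 0.41, limma adjusted p = 0.742), and the numbered groups overlapped.

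*Nt5e* and *Entpd1*, the consecutive enzymes of adenosine production, stayed high in every library and shifted less by genotype than *Ikzf2*. *Nt5e* (Entrez 23959, chromosome 9, 88327609 to 88372089) had 160.0 and 157 FPKM in control replicates 1 and 3 (158 ± 2.18, SD, n = 2), and 148 and 106 FPKM in CD4Cre-labelled replicates 1 and 3 (127 ± 30.3, SD, n = 2). Its CD4Cre-labelled libraries lay below both controls, replicate 1 by a small margin, and the log2 difference was -0.34 (SE 0.22, limma adjusted p = 0.761). *Entpd1* (Entrez 12495, chromosome 19, 40612366 to 40741602) had 48.8 and 35 FPKM in control replicates 1 and 3 (41.9 ± 9.77, SD, n = 2), and 39.9 and 24.9 FPKM in CD4Cre-labelled replicates 1 and 3 (32.4 ± 10.6, SD, n = 2). For this gene the genotypes overlapped, with a log2 difference of -0.38 (SE 0.30, limma adjusted p = 0.781). Sorted by number instead, both replicate 3 libraries lay below both replicate 1 libraries, a log2 difference of -0.56 (SE 0.24, unadjusted p = 0.0564, limma adjusted p = 0.524), which was -0.33 without CD4Cre-labelled replicate 3 and -0.18 when scaled to the CD3 genes and *Ptprc*. *Entpd1* placed the 4 libraries in the order of their T cell gene sums, whose part in it was not tested.

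Against the same T cell genes the enzymes did not separate the genotypes (plot of levels relative to CD3 genes). Per 1000 FPKM of that mean, *Nt5e* was at 251 and 303 in the controls and at 287 and 285 in the CD4Cre-labelled libraries. *Entpd1* was at 76.6 and 67.7 in the controls and at 77.1 and 67.4 in the CD4Cre-labelled libraries. With libraries scaled this way the log2 differences by genotype turned to 0.052 for *Nt5e* and 0.0022 for *Entpd1* (limma adjusted p = 0.934 and 0.997), both below the median of 0.355 over all genes. Of the 3 genes with more than 10 FPKM, *Ikzf2* was the one whose groups stayed apart on both scales. Without scaling, both CD4Cre-labelled libraries lay below both controls for 18.6% of all genes. The share of all genes that stayed apart on both scales was not computed.

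**Figure D2:**
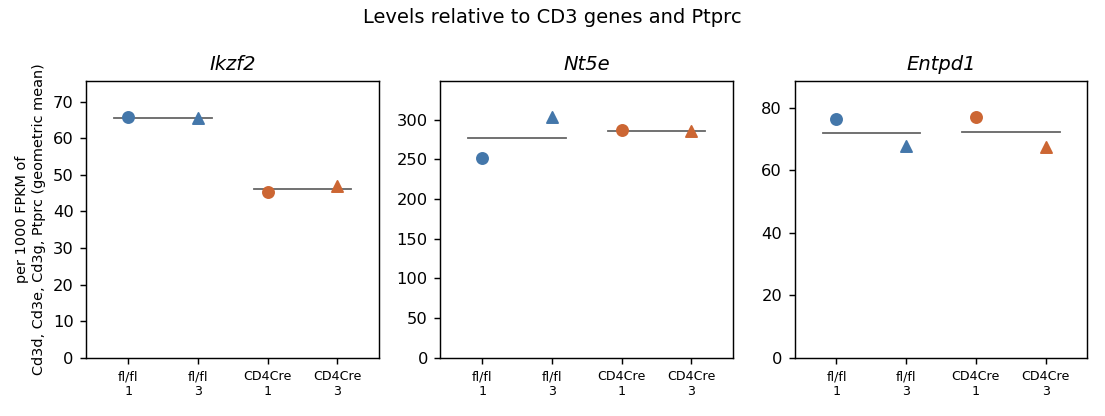
Levels of *Ikzf2*, *Nt5e* and *Entpd1* are plotted per 1000 FPKM of the geometric mean of *Cd3d*, *Cd3e*, *Cd3g* and *Ptprc* in the same library (linear axis from 0), with symbols and group mean lines as in the plot of levels by library. The *Ikzf2* points fall at 65.8 and 65.5 for fl/fl and at 45.3 and 47.0 for CD4Cre, whereas the groups overlap for *Nt5e* and *Entpd1*.

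*Il2ra* varied most of the 7 genes tested, over a range of 1.85 on the log2(FPKM + 1) scale. This gene of CD25 (Entrez 16184, chromosome 2, 11642792 to 11693194) had 3.58 and 2.93 FPKM in control replicates 1 and 3. It had 5.60 and 0.83 FPKM in CD4Cre-labelled replicates 1 and 3, so that the highest and the lowest values of the series both came from that group. Read from the steps between low FPKM values, 0.83 FPKM stands for roughly 8.99 to 39.2 fragments, and 5.60 FPKM for roughly 72.7 to 317. These bounds take the shortest and the longest annotated transcript. The genotype difference was -0.29 (SE 0.63, limma adjusted p = 0.918), 0.53 within replicate 1 and -1.10 within replicate 3. Both replicate 3 libraries lay below both replicate 1 libraries, with a log2 difference of -1.04 (SE 0.46, unadjusted p = 0.0697, limma adjusted p = 0.524). Most of it came from the CD4Cre-labelled libraries (-1.85), against -0.22 within the controls. Leaving out 1 library moved both differences, by genotype to 0.64 without CD4Cre-labelled replicate 3 and to -1.21 without CD4Cre-labelled replicate 1, and by number to -0.48 without CD4Cre-labelled replicate 3 and to -1.59 without control replicate 3.

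*Cd4* and *Cd40lg*, 2 of 3 CD4 T cell markers, were also lowest in CD4Cre-labelled replicate 3. Although the sort took CD4- cells, *Cd4* had 30.6 and 30.5 FPKM in control and CD4Cre-labelled replicate 1, and 10.1 and 3.17 FPKM in control and CD4Cre-labelled replicate 3. *Cd40lg*, the helper ligand of activated CD4 T cells, had 11.8 and 18.9 FPKM in control and CD4Cre-labelled replicate 1, and 6.26 and 1.30 FPKM in control and CD4Cre-labelled replicate 3. *Zbtb7b*, the third marker on that list, did not share this order, at 4.65, 4.20, 4.38 and 6.52 FPKM in control replicates 1 and 3 and CD4Cre-labelled replicates 1 and 3. The summed level of the 3 markers was 47.0 and 20.6 FPKM in the controls and 53.7 and 11.0 FPKM in the CD4Cre-labelled libraries. B lineage markers stood in the order of *Il2ra* as well, with summed levels of 55.2 and 33.7 FPKM in the controls and 84.8 and 31.6 FPKM in the CD4Cre-labelled libraries. *Cd4*, *Cd40lg* and *Zbtb7b* were named after their values were seen, and the part of CD4 T cell or B lineage RNA in the *Il2ra* values was not tested.

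*Foxp3* varied little between libraries in FPKM. The gene (Entrez 20371, chromosome X, 7579676 to 7595243) had 1.79 and 2.35 FPKM in control replicates 1 and 3, and 2.08 and 1.67 FPKM in CD4Cre-labelled replicates 1 and 3. All 4 values lay within a range of 0.33 on the log2(FPKM + 1) scale, which narrows differences at such low values. The groups overlapped by genotype and by number. Per 1000 FPKM of the geometric mean of the CD3 genes and *Ptprc*, *Foxp3* came to 2.81 and 4.54 in control replicates 1 and 3. In CD4Cre-labelled replicates 1 and 3 that ratio was 4.02 and 4.52. Its difference of log2(FPKM + 1) was -0.09 by genotype (SE 0.32, limma adjusted p = 0.953) and 0.03 by replicate number (SE 0.32, limma adjusted p = 0.974). Estimated from the depth steps, the 4 FPKM values stand for roughly 68.5 to 113 fragments if the longest annotated transcript of 3834 bases is taken, and 11.8 to 19.4 fragments for the shortest of 662 bases. *Foxp3* RNA was thus detected in every library. In FPKM, the library with the lowest *Cd4* and *Il2ra* also had the lowest *Foxp3* by a narrow margin, which was not so relative to the CD3 genes and *Ptprc*.

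**Figure D3:**
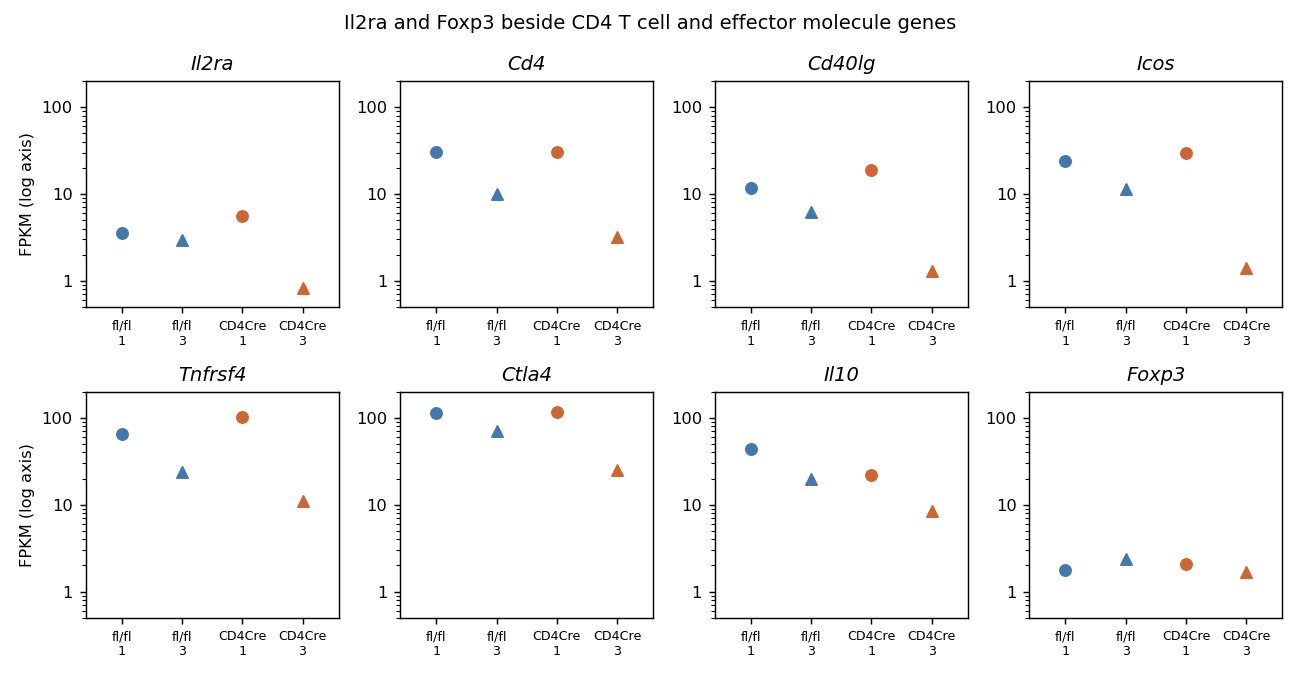
FPKM on a shared log axis is plotted for *Il2ra* and *Foxp3*, the CD4 T cell genes *Cd4* and *Cd40lg*, and *Icos*, *Tnfrsf4*, *Ctla4* and *Il10*, the effector molecule genes past a log2 difference of -1 by number and plotted for that reason, in the 4 libraries, with symbols as in the plot of levels by library. CD4Cre-labelled replicate 3 is the lowest library in all 8 panels, from 0.83 FPKM for *Il2ra* to 24.8 FPKM for *Ctla4*, and *Foxp3* is nearly level between 1.67 and 2.35 FPKM. Of the genes of these lists not plotted, *Lrrc32*, *Gpr83*, *Zbtb7b* and the tested effector genes *Nrp1*, *Itgae*, *Ebi3* and *Areg* are not lowest there.

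*Ikzf4*, which encodes Eos (Entrez 22781, chromosome 10, 128630839 to 128669671), had 3.81 and 2.45 FPKM in control replicates 1 and 3, and 3.07 and 2.15 FPKM in CD4Cre-labelled replicates 1 and 3. Like *Entpd1*, it was lower in both replicate 3 libraries (log2 difference -0.42, SE 0.30, limma adjusted p = 0.606) and overlapped by genotype (-0.19, SE 0.35, limma adjusted p = 0.902). It also shared with *Entpd1* the library order of the T cell gene sums, whose part in it was not tested. *Lrrc32*, which encodes GARP (Entrez 434215, chromosome 7, 98489305 to 98501831), had 1.80 and 1.17 FPKM in control replicates 1 and 3, and 0.89 and 1.30 FPKM in CD4Cre-labelled replicates 1 and 3. Control replicate 1 was its highest library, and it overlapped in both comparisons, with differences of -0.24 by genotype and -0.04 by number (SE 0.34 and 0.36, limma adjusted p = 0.866 and 0.969). *Gpr83* (Entrez 14608, chromosome 9, 14859880 to 14870789) was listed at 0 in control replicate 1 and had 0.60 FPKM in control replicate 3, 0.02 FPKM in CD4Cre-labelled replicate 1 and 0.23 FPKM in CD4Cre-labelled replicate 3. The value of 0.02 FPKM is about what a single fragment gives for a transcript of 2937 to 3586 bases. *Gpr83* fell under the filter of 1 FPKM in 2 libraries and was not tested, and both replicate 3 values were above both replicate 1 values.

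Counted together, 7 of the 8 genes passed the filter on low values and 0 of these had an adjusted p under 0.05 from limma by genotype, as was so for 0% of the 12009 genes tested. At an unadjusted p under 0.05, 1 of the 7 (*Ikzf2*) passed by genotype, against 5.35% of all genes. All 7 had a negative genotype difference, where 49.9% of all genes did, with a median of -0.29 beside a median of 0.00097 over all genes. The CD4Cre-labelled libraries were both below both controls for 2 of the 7 (*Ikzf2* and *Nt5e*), against 18.6% of all genes, and 0 of the 7 were past a log2 difference of 1 or -1, where 6.2% and 0.441% of all genes were. Scaling to the CD3 genes and *Ptprc* moved all genes together, to a median of 0.355, which left 3 of the 7 negative (*Ikzf2*, *Il2ra* and *Lrrc32*) and all 7 below that median.

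By replicate number, 0 of the 7 had an adjusted p under 0.05 (0% of all genes) and 0 an unadjusted p under 0.05 (9.07% of all genes). The replicate 3 libraries were both below both replicate 1 libraries for 3 of the 7 (*Il2ra*, *Ikzf4* and *Entpd1*), against 22.8% of all genes. *Il2ra* was past a log2 difference of -1, as were 1.39% of all genes, and 0 of the 7 were past 1, as 6.25% were. A negative difference was seen in 6 of the 7 and in 50.8% of all genes, and the median of the 7 was -0.35, beside -0.0082 over all genes. Scaled to the CD3 genes and *Ptprc*, 3 of the 7 were negative (*Il2ra*, *Ikzf4* and *Entpd1*), and all 7 lay below the median of 0.347 over all genes. The numbered libraries also differed in their T cell gene sums (3666 and 3046 FPKM in replicate 1, 2906 and 2087 FPKM in replicate 3) and epithelial marker sums (1826.5 and 5751 FPKM, against 7533 and 15925 FPKM), whose part in these differences was not tested. Over all genes, the 751 above 1 and 167 below -1 became 261 and 295 without control replicate 1, and 256 and 227 without CD4Cre-labelled replicate 3. The smallest p that an exact two-sided permutation test allows here, with 2 libraries against 2, is 0.333.

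**Figure D4:**
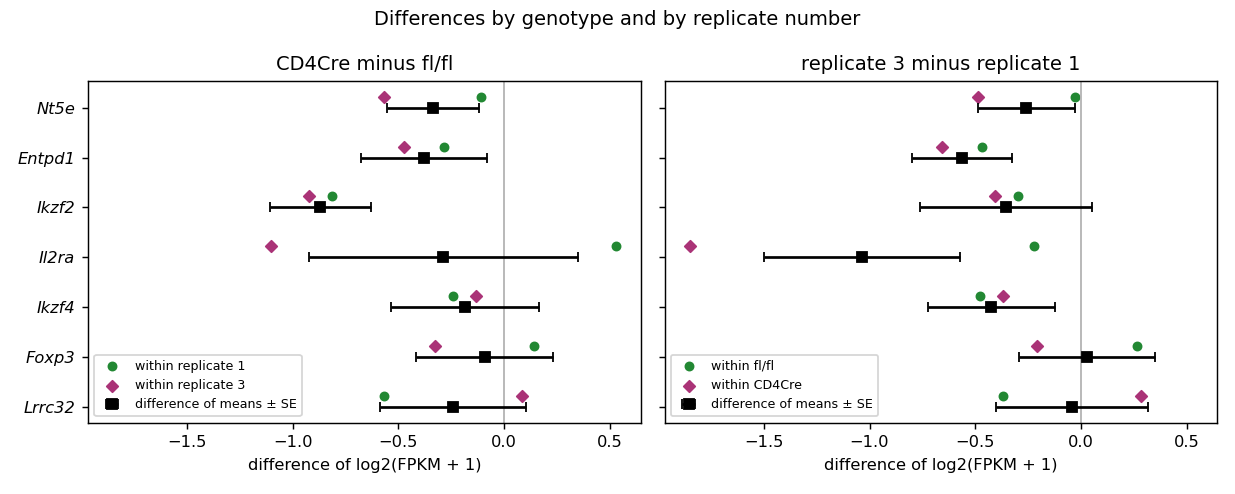
Differences of log2(FPKM + 1) are plotted for the 7 regulatory T cell genes tested, by genotype (CD4Cre-labelled minus fl/fl, left) and by replicate number (3 minus 1, right), with black squares for the difference of group means, bars for its SE, and coloured points for the difference within a single number or genotype. *Ikzf2* sits at -0.87 by genotype with its within-number points at -0.81 and -0.92, and *Il2ra* has within-number points on both sides of 0, at 0.53 and -1.10.

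The other genes of these pathways were set beside them by genotype and by replicate number. Beyond *Il2ra*, 9 of 10 genes of the IL-2 axis were tested, 8 with a negative genotype difference (49.9% of all genes), a median of -0.30, and 0 past the adjusted threshold. By number 8 were negative too (50.8% of all genes), with a median of -0.35. The CD4Cre-labelled libraries were both below both controls for 3 of the 9 (18.6% of all genes). Both replicate 3 libraries were below both replicate 1 libraries for 4 of the 9 (22.8% of all genes). The summed T cell genes were at 3666 and 2906 FPKM in the controls and 3046 and 2087 FPKM in the CD4Cre-labelled libraries, and their part in these differences was not tested. *Il2rb*, the receptor chain shared with IL-15, had 891 and 636 FPKM in the controls and 590 and 509 FPKM in the CD4Cre-labelled libraries, which lay below both controls (log2 difference -0.46, SE 0.25, limma adjusted p = 0.755). *Il2rg*, the common γ chain, had 708 and 571 FPKM in the controls and 667 and 337 FPKM in the CD4Cre-labelled libraries (-0.42, SE 0.36, limma adjusted p = 0.793). Its genotypes overlapped, while both replicate 3 libraries lay below both replicate 1 libraries (log2 difference by number -0.65, SE 0.28, limma adjusted p = 0.524). *Jak1*, the kinase bound to the β chain, had a difference of -0.30 (SE 0.18, limma adjusted p = 0.757). Per length, both *Il2rb* and *Il2rg* were more than 100 times as abundant as *Il2ra* in every library.

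By genotype the Ikaros family showed a larger difference in *Ikzf2* than in its relatives. *Ikzf1* (Ikaros) had 60.7 and 48.1 FPKM in the controls and 57.0 and 33.5 FPKM in the CD4Cre-labelled libraries, a log2 difference of -0.30. *Ikzf3* (Aiolos) had 117 and 108 FPKM in the controls and 102 and 73.5 FPKM in the CD4Cre-labelled libraries (-0.37), and *Ikzf5* (Pegasus) had a difference of -0.35. None of these 3 passed the adjusted threshold (0 of 3), their SE ran from 0.22 to 0.30, and the difference between them and *Ikzf2* was not tested. By number the differences were -0.54 for *Ikzf1*, -0.29 for *Ikzf3* and -0.165 for *Ikzf5*, beside -0.35 for *Ikzf2*. For *Ikzf1* both replicate 3 libraries lay below both replicate 1 libraries (22.8% of all genes). For *Ikzf3* and *Ikzf5* both CD4Cre-labelled libraries lay below both controls (18.6% of all genes).

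In the adenosine pathway downstream of CD73, 7 of 9 genes were tested, 2 with a negative genotype difference (49.9% of all genes) and 5 with a positive one (median 0.21). By number 2 were negative (50.8% of all genes) and 5 positive as well, with a median of 0.091. *Adora2a*, the adenosine receptor of T cells, had 38.2 and 23.0 FPKM in the controls and 27.3 and 15.3 FPKM in the CD4Cre-labelled libraries, and by number both replicate 3 libraries were below both replicate 1 libraries (-0.75, SE 0.28, limma adjusted p = 0.524). Its 4 values stood in the order of the T cell gene sums, whose part in it was not tested. *Adk*, which phosphorylates adenosine inside cells, went the other way, with 13.7 and 34.1 FPKM in the controls and 27.2 and 54.3 FPKM in the CD4Cre-labelled libraries. Its difference was 0.80 by genotype (SE 0.51) and 1.12 by number (SE 0.38), and the 4 libraries stood in the same order as by their epithelial marker sums, whose part in it was not tested. *Slc29a1*, a nucleoside transporter, differed by 0.14 (SE 0.19, limma adjusted p = 0.854).

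For the genes that anchor or activate TGF-β beside GARP, 7 of 9 were tested and 4 had a negative genotype difference, near the 49.9% of all genes (median -0.14). By number 5 were negative (50.8% of all genes), with a median of -0.33. Both replicate 3 libraries were below both replicate 1 libraries for 4 of the 7 (22.8% of all genes). *Tgfb3* was the most abundant, with 58.6 and 45.6 FPKM in the controls and 32.3 and 36.5 FPKM in the CD4Cre-labelled libraries, which lay below both controls (-0.58, SE 0.21, unadjusted p = 0.035, limma adjusted p = 0.755). *Nrros*, an anchor related to GARP, was higher than *Lrrc32* in every library, with 22.5 and 15.2 FPKM in the controls and 23.6 and 21.5 FPKM in the CD4Cre-labelled libraries. *Furin*, a protease that cleaves the TGF-β precursor, was lower in both replicate 3 libraries, with 23.2 and 21.8 FPKM in control and CD4Cre-labelled replicate 1 and 10.5 and 8.96 FPKM in control and CD4Cre-labelled replicate 3 (-1.14, SE 0.22, unadjusted p = 0.00221, limma adjusted p = 0.524).

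Of 15 transcription factors that work with or before Foxp3, 14 were tested. By genotype 12 had a negative difference (49.9% of all genes did), with a median of -0.19, and the CD4Cre-labelled libraries were both below both controls for 3, near the 18.6% of all genes. By number all 14 had a negative difference (50.8% of all genes did), with a median of -0.54, and both replicate 3 libraries were below both replicate 1 libraries for 11 of the 14, beside 22.8% of all genes. The sum of the 6 T cell genes was also lower in replicate 3 (2906 and 2087 FPKM, against 3666 and 3046 FPKM in replicate 1) and the epithelial marker sum higher (7533 and 15925 FPKM, against 1826.5 and 5751 FPKM), and their part in this was not tested. Among the 3 most abundant, *Nr4a2*, an agonist-induced nuclear receptor, had 218 and 231 FPKM in the controls and 159 and 124 FPKM in the CD4Cre-labelled libraries (log2 difference by genotype -0.67, SE 0.20, unadjusted p = 0.0157, limma adjusted p = 0.755). Its relative *Nr4a1* had 329 and 314 FPKM in the controls and 373 and 255 FPKM in the CD4Cre-labelled libraries (-0.06, SE 0.24), and *Hif1a* differed by -0.05 (SE 0.31).

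Surface and secreted molecules of regulatory T cells had the median difference by number furthest from 0 of the 6 lists. Of 21, 18 were tested, 13 with a negative genotype difference (49.9% of all genes) and 16 with a negative difference by number (50.8% of all genes), with medians of -0.32 and -0.69. Both replicate 3 libraries were below both replicate 1 libraries for 13 of the 18 (22.8% of all genes), and 0 passed the adjusted threshold in either comparison. *Tnfrsf4* (OX40) had 65.7 and 102 FPKM in control and CD4Cre-labelled replicate 1, and 23.9 and 11.0 FPKM in control and CD4Cre-labelled replicate 3 (-2.26, SE 0.40, unadjusted p = 0.00158, limma adjusted p = 0.524). *Icos*, a costimulatory receptor, had 23.8 and 29.5 FPKM in control and CD4Cre-labelled replicate 1, and 11.4 and 1.39 FPKM in control and CD4Cre-labelled replicate 3 (-2.34, SE 0.74), and its genotype difference was -1.04 (SE 1.17, limma adjusted p = 0.838) with overlapping groups. *Ctla4*, an inhibitory receptor, had a difference of -1.45 (SE 0.46), with its lowest value of 24.8 FPKM in CD4Cre-labelled replicate 3. The CD4 T cell marker sums (47.0 and 53.7 FPKM in replicate 1 of the groups, 20.6 and 11.0 FPKM in replicate 3) and the sum of the 6 T cell genes (3666 and 3046 FPKM in replicate 1, 2906 and 2087 FPKM in replicate 3) were also lower in both replicate 3 libraries, and their part in these differences was not tested.

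*Il10*, a suppressive cytokine, was, like *Icos*, past a log2 difference of -1 in both comparisons. It had 43.8 and 19.7 FPKM in control replicates 1 and 3, and 21.8 and 8.38 FPKM in CD4Cre-labelled replicates 1 and 3. The difference was -1.06 by genotype (SE 0.55, limma adjusted p = 0.755), where the groups overlapped, and -1.20 by number (SE 0.48, limma adjusted p = 0.524), where they did not. *Il10* placed the 4 libraries in the order of their T cell gene sums, the reverse of their epithelial marker sums, and the part of either in it was not tested. *Areg*, a tissue repair factor, was past 1 in the opposite direction (1.02 by genotype and 1.11 by number), with 5.46 and 15.1 FPKM in the controls and 14.2 and 27.4 FPKM in the CD4Cre-labelled libraries. Like *Adk*, it placed the 4 libraries in the order of their epithelial marker sums, whose part in it was not tested. The most abundant of the list held closer levels, with genotype differences of -0.45 for *Tnfrsf18* (GITR), -0.52 for *Itgae* (CD103), which was below both controls in both CD4Cre-labelled libraries, and -0.38 for *Fgl2*, a secreted fibrinogen-like protein.

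**Figure D5:**
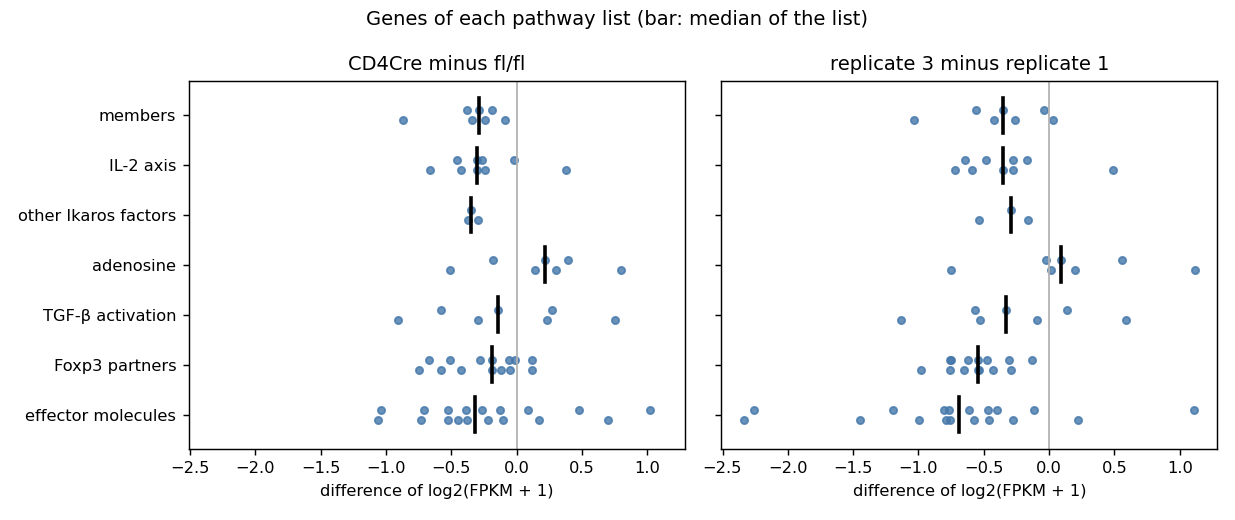
Each point is the difference of log2(FPKM + 1) of 1 tested gene, by genotype (CD4Cre-labelled minus fl/fl, left) or by replicate number (3 minus 1, right), in the 8 regulatory T cell genes (members) and in 6 lists of related genes, with a black bar at each median. The medians run from -0.35 to 0.21 by genotype, and the effector molecules reach furthest by number, with a median of -0.69.

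The genes nearest in profile to *Il2ra* over the 4 libraries, by root mean square difference of centred log2(FPKM + 1), were *Eya2* (0.046), *Itgal* (0.058) and *Serpinb9* (0.084). *Itgal*, the α chain of LFA-1, had 17.0 and 13.4 FPKM in the controls and 25.3 and 6.46 FPKM in the CD4Cre-labelled libraries. Those nearest to *Ikzf2* were *Irs2* (0.054), *Swsap1* (0.056) and *Zfp346* (0.063), of which *Irs2*, an adaptor of insulin receptors, had 43.7 and 34.97 FPKM in the controls and 24.3 and 19.8 FPKM in the CD4Cre-labelled libraries. Within a difference of 0.1 there were 5 genes for *Il2ra* and 16 for *Ikzf2*, and over 4 libraries such likeness is a description of these values.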

How the data were processed

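RNA-seq values of 4 libraries (2 per genotype, RNA of 3 mice pooled in each) were used. Per the methods and labels, the authors mapped reads to mm10 with HISAT and Bowtie2 (2.2.5) and quantified genes with RSEM (1.2.8), and they deposited FPKM, already scaled to transcript length and mapped fragments. The gene annotation is not given in the sources used here. Entrez identifiers were matched to RefSeq of GRCm38.p6 (18467 of 19339 genes). Read totals are unknown, so no counting intervals were computed, and relative depth came from the steps of low FPKM times length in genes with a single GENCODE transcript of 1000 to 2500 bases.

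Here log2(FPKM + 1) of the 12009 genes that reached 1 FPKM in 2 or more libraries was tested with limma 3.58.1 (R 4.3.3; lmFit, eBayes with a trend) by genotype and by replicate number, with Benjamini-Hochberg adjustment over all genes tested and a threshold of 0.05. The model was tested on simulated data. Genes named beyond the 8 are, per list, the 3 of highest mean FPKM and those past a log2 difference of 1 or -1, plus the 3 nearest profiles of the 2 most variable genes. *Cd8a*, *Cd4*, *Cd40lg*, *Zbtb7b*, *Nrp1* and *Ebi3* fall outside this rule and were named after their values were seen. The genes, lists and alternatives were chosen with earlier results of these data known. Alternatives were the pseudocount, the filter, scaling, the trend, a replicate block and leaving out each library.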

Additional observations from a re-analysis of the deposited data

How the results depend on the processing

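Of 87 values for single regulatory T cell genes by genotype under the alternatives, 78 kept their direction and side of the threshold, 1 crossed it and 8 turned in direction, and by replicate number 77 of 87 kept both and 10 turned. Pseudocounts of 0.1 and 0.01 gave 1381 and 1451 genes past a log2 difference of 1 by genotype (797 as reported, 744 higher and 53 lower) and 1485 and 1565 by replicate number (918 as reported). A filter of 5 FPKM in 2 libraries gave 597 by replicate number and left 3 of the 8 genes (*Ikzf2*, *Nt5e* and *Entpd1*), with 3 negative differences in each comparison and 0 past 1, since fewer genes were tested. Scaling to *Cd3d*, *Cd3e*, *Cd3g* and *Ptprc* moved the median of all genes to 0.355 by genotype and 0.347 by replicate number, and gave 1434 genes past 1 by genotype (1408 higher and 26 lower). There 3 of the 7 tested genes had negative differences by genotype and 3 by replicate number, where 0 were past 1. The differences that turned were 0.16 for *Foxp3*, 0.10 for *Ikzf4*, 0.052 for *Nt5e*, 0.0022 for *Entpd1* and 0.19 for *Kdm6b* by genotype, and 0.024 for *Ikzf2*, 0.13 for *Nt5e*, 0.195 for *Lrrc32* and 0.0094 for *Kdm6b* by replicate number, all below those medians. Quantile normalization gave *Foxp3* -0.081 by replicate number. The cause of these shifts was not tested.

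A replicate block added to the genotype model let 1019 genes (8.49%) pass the adjusted threshold, 886 higher and 133 lower in the CD4Cre-labelled libraries, 1 of them among the 7, namely *Ikzf2* (limma adjusted p = 0.0119). Over its alternatives the adjusted p of *Ikzf2* ran from that value to 1. With genotype as a term, 1364 genes (11.4%) passed by replicate number and 0 of the 7. Neither the labels nor the methods say that a number pairs the libraries, and same-numbered libraries deviated together with a correlation of 0.56 across genes, which are not independent replicates.

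Leaving out each library in turn left a lone library in a group, assumed to vary like the other group. It gave 0 genes past the adjusted threshold by genotype and 0 to 3 by replicate number (3 without CD4Cre-labelled replicate 1), 364 to 1577 and 483 to 1644 genes past 1, and 0 to 2 and 0 to 1 of the 7 past 1. These counts moved by over 1.5 times whichever library was left out, to 364 and 556 without control replicate 1, 1419 and 1644 without control replicate 3, 1577 and 1453 without CD4Cre-labelled replicate 1, and 434 and 483 without CD4Cre-labelled replicate 3. By genotype *Foxp3* ran from -0.22 to 0.040 (above 0 without control or CD4Cre-labelled replicate 3), *Il2ra* from -1.21 to 0.64 (0.64 without CD4Cre-labelled replicate 3), *Ikzf4* from -0.43 to 0.054 (without control replicate 1) and *Kdm6b* from -0.52 to 0.16 (without CD4Cre-labelled replicate 3), while *Ikzf2* stayed between -1.07 and -0.67. *Nt5e* ran from -0.58 to -0.094 and *Entpd1* from -0.71 to -0.051 (without CD4Cre-labelled replicates 1 and 3), with *Entpd1* at -0.15 and -0.61 without control replicates 1 and 3. *Lrrc32* ran from -0.43 (without control replicate 3) to -0.058 (without control replicate 1), with -0.100 and -0.38 without CD4Cre-labelled replicates 1 and 3. By replicate number *Foxp3* ran from -0.13 to 0.19 (-0.042 and -0.13 without control replicates 1 and 3), *Ikzf2* from -0.82 to 0.11 and *Nt5e* from -0.54 to 0.026 (0.11 and 0.026 without CD4Cre-labelled replicate 3, and 0.053 for *Ikzf2* without control replicate 1) and *Lrrc32* from -0.33 to 0.24 (without control replicate 1).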
